A study of Canis lupus familiaris with 18 samples.

Results

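The adipocyte lineage and lipid genes of the canine mesenchymal stem cell array are ADIPOQ, LPL, PPARG, FASN, CEBPD and INSR. They were chosen by name for their known place in fat cell formation, fat handling and insulin signalling, and they are 6 of the 84 genes measured. The rule uses no measured value, but the choice was made with earlier results of these data known. Mesenchymal stem cells from dog fat tissue (cAD-MSCs) of 9 female dogs were compared after prolonged culture, at passage 6 (P6, 9 samples), with the early passage 3 (P3, 9 samples) of the same dogs. The dogs were healthy, differed in age and breed, and gave abdominal fat at elective surgery. The cells came from its collagenase-digested stromal vascular fraction and grew as adherent monolayers in low-glucose basal medium with fetal bovine serum, so that both passages share the medium and neither was driven toward fat cells for these RNA samples. Donors carry a number and a stroke (6/21, 1/22 and so on), 1 culture was sampled per donor and passage, and each gene was read in 1 well per sample.

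Fat cells arise from mesenchymal precursors in steps. Early C/EBP factors, CEBPD among them, switch on the nuclear receptor PPARG, the central regulator of fat cell formation, and PPARG in turn drives genes of the mature fat cell, including the lipid enzyme LPL and the hormone ADIPOQ. Insulin, acting through INSR, favours this course and the synthesis of fatty acids by FASN. Adipose-derived MSCs hold low levels of several of these transcripts before any induction, and the study asked how prolonged culture alters such genes.

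Expression was read as the threshold cycle (CT), the PCR cycle at which a well's fluorescence crosses a set level, so that a lower CT stands for more transcript. A CT above 35 cycles, or a well that never crossed, was set to 35, and such a well only bounds the level from above. Each CT was then taken from the geometric mean of 5 reference gene CTs, which gives −ΔCT, a level on a log2 scale where 1 unit is a 2-fold difference. Differences are P6 minus P3, tested with limma, with the Benjamini-Hochberg adjustment made over all 84 genes. Levels of different genes are not compared on this scale, because each primer pair has its own efficiency.

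Reference gene CTs had a geometric mean of 14.65 ± 0.321 cycles at P6 and 14.85 ± 0.508 cycles at P3 (SD, n = 9 each), and between 72 and 77 genes were detected before 35 cycles at P6, against 75 to 81 at P3. Of all 1512 gene wells, 76 lay more than 5 cycles from the median CT of their gene and passage. The P6 samples of donors 9/21 and 7/22 held 18 and 11 of them, and the P3 sample of 7/22 held 9. The differences in LPL, ADIPOQ, CEBPD and INSR are also given without both donors. Of the 7 MSC surface markers on the array (THY1, ENG, NT5E, CD44, ITGB1, ALCAM and VCAM1), 5 were detected in 18 of 18 samples and the other 2 in 17. This shows their RNA and not their protein. By flow cytometry at P3 the paper did not observe CD73, the protein of NT5E.

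LPL and ADIPOQ, the lipid enzyme and the hormone of mature fat cells, had lower mean levels at P6 than at P3, with differences of −3.41 and −3.29 log2 units, and each was lower in 8 of 9 donors. PPARG, FASN and CEBPD had higher means at P6 and INSR a lower one, but the means of PPARG, CEBPD and INSR were each moved by over 1.5 times by 1 well. None of the 6 genes passed the adjusted threshold of 0.05 in limma (lowest adjusted p = 0.222), where 1 of the 84 genes did (1.19%), the leukocyte gene PTPRC. At an unadjusted p under 0.05 and lower at P6 there were 2 of the 6, against 5 of the 84 (5.95%). A fall of the mean by at least 2-fold was seen in 3 of the 6 (ADIPOQ, LPL, INSR), against 21 of the 84 (25%), and a rise of that size in 1 of the 6 (PPARG), against 10 of the 84 (11.9%). Over the 6 genes the median difference was −0.53, and over all 84 it was −0.05, with 45 lower and 39 higher.

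**Figure D1:**
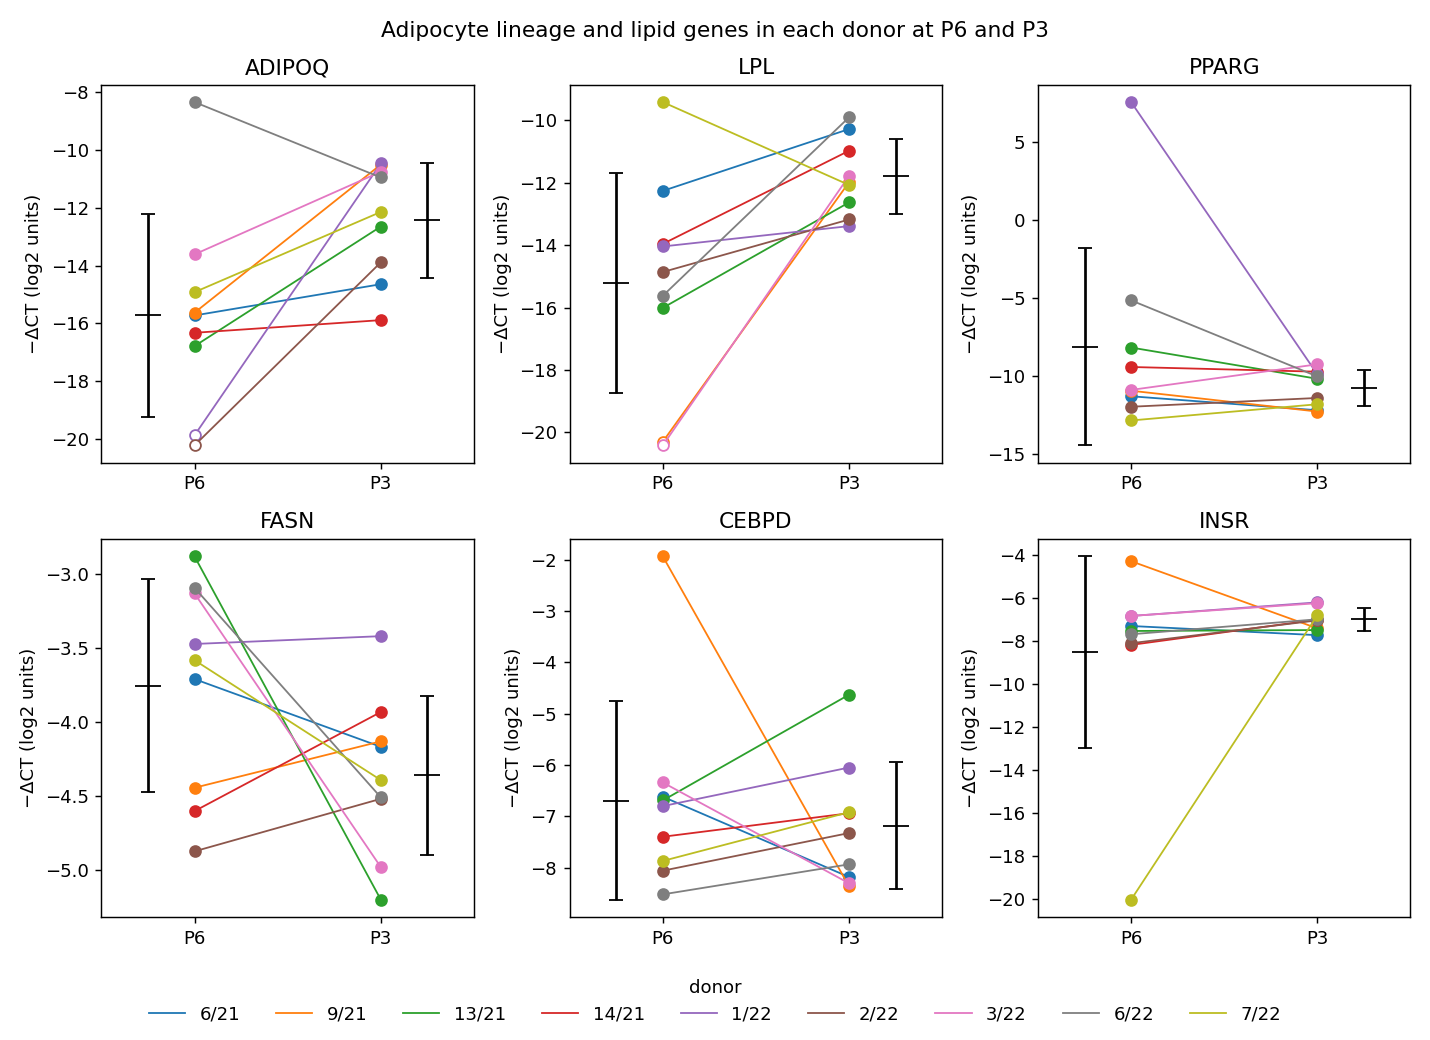
Level of each of the 6 genes as −ΔCT (vertical axes, log2 units, a separate scale in each panel) at P6 on the left and P3 on the right, with a line for each of the 9 donors, open points for wells at or over the limit of 35 cycles, and black bars for the mean and SD. LPL and ADIPOQ fell along 8 of 9 lines, while a single P6 well lies far from the other 8 in PPARG, CEBPD and INSR.

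CEBPD, the C/EBP factor that acts early in fat cell formation, is read at array position B02 (RefSeq XM_843188). Its level at P6 was lowest at −8.52 in donor 6/22, with a median of −6.80 and a highest value of −1.93 in donor 9/21. The P3 levels ran between −8.37 in donor 9/21 and −4.63 in donor 13/21, around a median of −7.33. Of the P6 levels, 7 of 9 lay inside the range of P3, so the passages overlap. CEBPD averaged −6.69 ± 1.93 at P6 and −7.18 ± 1.24 at P3 (SD, n = 9 each), a difference of 0.49 (95% interval −1.09 to 2.08, adjusted p = 0.895 in limma). The mean was higher at P6 although CEBPD was lower in 6 of 9 donors. The P6 well of donor 9/21 crossed at 16.63 cycles, and the next highest P6 level was −6.34. Without that well CEBPD averaged −7.29 ± 0.794 at P6 (n = 8), and the difference was −0.10. Without donors 9/21 and 7/22 the mean difference in CEBPD was −0.15, with 5 of 7 donors lower. Within donors the difference ran between −2.06 in 13/21 and 6.44 in 9/21, with a median of −0.59.

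PPARG, the nuclear receptor that commits precursors to the fat cell fate, is read at position F03 (RefSeq NM_001024632) and was detected in 18 of 18 samples. At P6 its level was lowest at −12.87 in donor 7/22, with a median of −10.91 and a highest value of 7.56 in donor 1/22. At P3 the lowest was −12.30 in donor 9/21, the median −10.20 and the highest −9.27 in donor 3/22. The 1/22 well crossed at 7.56 cycles, before every reference gene of the array, whose earliest well in any sample crossed at 12.7 cycles. It is 1 of 2 wells under 10 cycles among the 1512 gene wells, and PPARG was the earliest gene of that sample. The other such well is BGLAP in donor 7/22 at P6.

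PPARG averaged −8.14 ± 6.32 at P6 and −10.77 ± 1.17 at P3 (SD, n = 9 each), a difference of 2.63 (95% interval −1.67 to 6.92, adjusted p = 0.873 in limma). This was the highest mean difference of the 84 genes, and the SD of PPARG at P6 was also the widest of the 84. The medians were ordered the other way, with that of P6 lower by 0.71. Without the 1/22 well PPARG averaged −10.11 ± 2.47 at P6 (n = 8), and the difference was 0.66 (adjusted p = 0.891 in limma). PPARG was higher at P6 in 6 of 9 donors. Donor 6/22 followed 1/22 with a difference of 4.88, and its P6 well crossed at 19.67 cycles. The other 7 donors lay between −1.64 in 3/22 and 2.01 in 13/21. Most donors thus had PPARG within a few cycles of its P3 level, with 2 donors above.

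LPL, which encodes lipoprotein lipase, the enzyme that releases fatty acids from circulating triglycerides, is read at position E03 (RefSeq XM_005635734). Its level at P6 was lowest at −20.42 in donor 3/22, where the well never crossed, with a median of −14.86 and a highest value of −9.41 in donor 7/22. The P3 levels ran between −13.39 in donor 1/22 and −9.90 in donor 6/22, around a median of −11.98. At P6, 7 of 9 levels lay below the lowest P3 level, 1 lay inside the P3 range and 1 above it.

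LPL averaged −15.21 ± 3.52 at P6 and −11.80 ± 1.22 at P3 (SD, n = 9 each), a difference of −3.41 (standard error 1.20, 95% interval −5.93 to −0.90), or a level 10.7-fold lower at P6. The unadjusted p in limma was 0.0106 and the adjusted p 0.222. Taken alone, LPL had a two-sided p of 0.0111 by the exact permutation test of the 18 samples (adjusted p = 0.232). By the exact sign-change test of the 9 paired differences the p was 0.0273 (adjusted p = 0.375). Neither adjusted value passed the threshold, which the sign-change test could hardly pass for any gene with 9 pairs. In that test PTPRC, lower in 9 of 9 donors, had the lowest possible p, 0.00391, and an adjusted p of 0.328. In a bulk culture a smaller number of cells that carry a transcript and less transcript per cell cannot be told apart. With robust regression in limma, which gives less weight to wells far from the fit, the difference was −3.10 and the adjusted p 0.0154, past the threshold.

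Within donors the difference in LPL was −8.64 in 3/22 and −8.32 in 9/21, with a median of −2.99, −0.65 in 1/22 and 2.66 in 7/22. LPL was lower at P6 in every donor but 7/22. The 2 deepest falls are bounds, since the 3/22 well never crossed and the 9/21 well crossed at 35.08 cycles. In the same P6 sample of 9/21 the wells at E01 and E02 beside LPL, which hold HAT1 and HDAC1, never crossed, and the part of this in the LPL value was not tested. Without donors 9/21 and 7/22 the mean difference in LPL was −3.58. LPL was then lower at P6 in 7 of 7 donors, which follows from leaving out 7/22, the only donor where it was higher. The LPL wells of both donors at P6 were themselves among those more than 5 cycles from the median. On the linear scale (2 to the power −ΔCT) of the methods' test the log2 ratio of mean LPL levels was −0.90, a smaller fall. The unadjusted p of LPL by the methods' test was 0.37 (adjusted p = 0.833), so LPL passed neither threshold there.

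FASN, which encodes fatty acid synthase, is read at position B10 (RefSeq XM_005624145), and its wells crossed between 17.17 and 19.64 cycles at P6 and between 18.5 and 20.38 cycles at P3. Its level at P6 was lowest at −4.87 in donor 2/22, with a median of −3.58 and a highest value of −2.88 in donor 13/21. At P3 the lowest was −5.20 in donor 13/21, the median −4.39 and the highest −3.42 in donor 1/22. FASN had the narrowest spread of the 6 genes at P6, and 6 of 9 P6 levels lay inside the P3 range while 3 lay above it. It averaged −3.75 ± 0.719 at P6 and −4.36 ± 0.535 at P3 (SD, n = 9 each), a difference of 0.61 (95% interval −0.13 to 1.34, adjusted p = 0.873 in limma). FASN was higher at P6 in 5 of 9 donors. The lower end of its interval, −0.13, lies above the whole intervals of LPL and ADIPOQ. Donor 13/21 had the lowest FASN level at P3 and the highest at P6, a difference of 2.32.

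ADIPOQ, which encodes adiponectin, a hormone secreted by mature fat cells, is read at position A03 (RefSeq NM_001006644). Its level at P6 was lowest at −20.23 in donor 2/22, with a median of −15.73 and a highest value of −8.33 in donor 6/22. At P3 the lowest was −15.89 in donor 14/21, the median −12.14 and the highest −10.46 in donor 1/22. The P6 wells of 1/22 and 2/22 never crossed. At P6, 4 of 9 levels lay below the lowest P3 level, 4 lay inside the P3 range and 1 lay above it.

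ADIPOQ averaged −15.72 ± 3.52 at P6 and −12.43 ± 1.99 at P3 (SD, n = 9 each), a difference of −3.29 (standard error 1.29, 95% interval −6.01 to −0.57), or a level 9.77-fold lower at P6. The unadjusted p in limma was 0.0205 and the adjusted p 0.345. Taken alone, ADIPOQ had a two-sided p of 0.0276 by the exact permutation test of the 18 samples (adjusted p = 0.463). By the exact sign-change test of the paired differences the p was 0.0195 (adjusted p = 0.328). Neither adjusted value passed the threshold, which the sign-change test could hardly pass for any gene with so few pairs. Within donors the difference was −9.42 in 1/22 and −6.34 in 2/22, both bounds, with a median of −2.86, −0.44 in 14/21 and 2.61 in 6/22. ADIPOQ was lower at P6 in every donor but 6/22. The 6/22 well crossed at 22.84 cycles, the earliest ADIPOQ well of the 18. In that sample 6 other genes, PPARG, EGF, CSF3, VWF, IGF1 and IL6, also crossed more than 5 cycles earlier than their P6 median, and the part of this in the ADIPOQ value was not tested. Without donors 9/21 and 7/22 the mean difference in ADIPOQ was −3.10, with 6 of 7 donors lower. On the linear scale of the methods' test the direction of ADIPOQ turned, with a log2 ratio of mean levels of 0.13. The unadjusted p of ADIPOQ by the methods' test was 0.930 (adjusted p = 0.971), so ADIPOQ passed neither threshold there.

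ADIPOQ and LPL were each detected in 7 of 9 samples at P6 and in 9 of 9 at P3, a difference not detectable by Fisher's exact test (two-sided p = 0.471, adjusted p = 1). A fall in at least 8 of 9 donors was seen in 2 of the 6 genes, LPL and ADIPOQ, against 5 of the 84 (5.95%). Each fell by at least 1 log2 unit in 7 donors, and both did so in 5. The donors with the deepest falls were not the same, 3/22 and 9/21 for LPL and 1/22 and 2/22 for ADIPOQ, and the single donor that went the other way was 7/22 for LPL and 6/22 for ADIPOQ. Across donors the levels of ADIPOQ and LPL at P6 had a Pearson r of −0.16 (exact permutation p = 0.683, adjusted p = 0.968, n = 9) and a Spearman rho of −0.20 (adjusted p = 1). In the 4 donors numbered /21 and the 5 numbered /22, taken apart, the mean differences were −4.17 and −2.81 for LPL and −2.70 and −3.76 for ADIPOQ, lower at P6 in both sets.

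**Figure D2:**
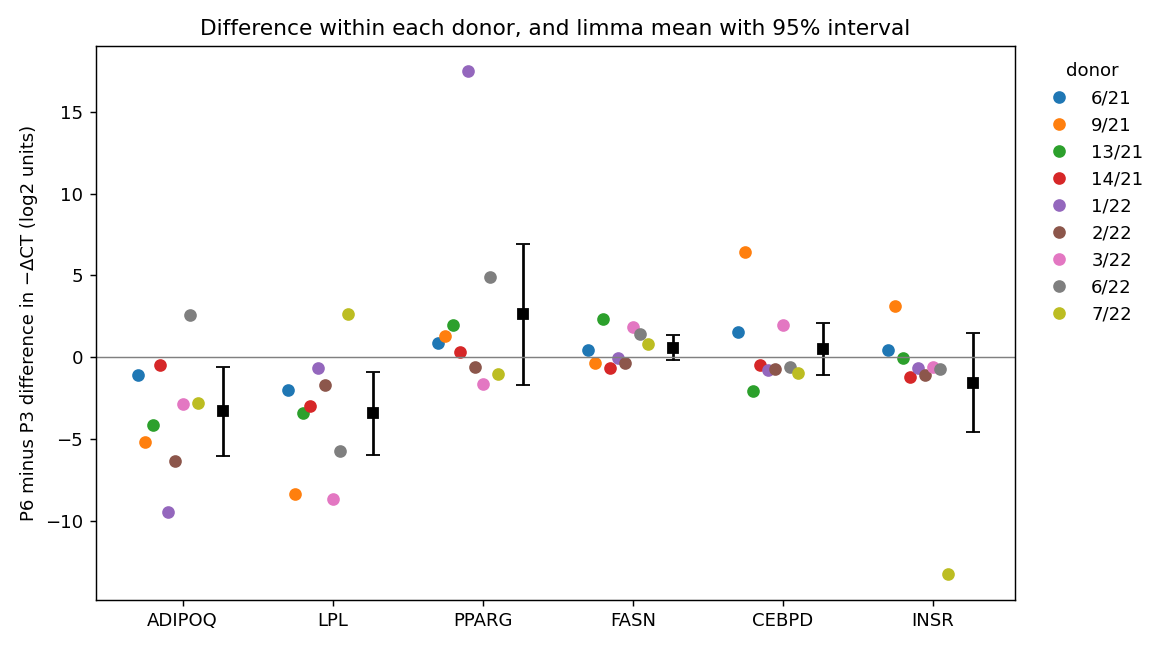
P6 minus P3 difference in −ΔCT (vertical axis, log2 units) of each gene in each of the 9 donors (coloured points), with the limma mean and its 95% interval as a black square and bar. The interval comes from the unpaired fit, without a donor block, so it does not measure the spread of the points. For LPL and ADIPOQ the interval lies below 0, for the other 4 genes it holds 0, and single donors stand far off in PPARG (1/22), CEBPD (9/21) and INSR (7/22).

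INSR, the insulin receptor, is read at position D04 (RefSeq XM_005633222). Its level at P6 was lowest at −20.03 in donor 7/22, with a median of −7.52 and a highest value of −4.27 in donor 9/21. Among the P3 samples it lay between −7.72 in donor 6/21 and −6.19 in donor 1/22, with a median of −6.99. INSR was the most even of the 6 genes at P3, with an SD of 0.524, and its SD at P6 was 8.54 times as large. The 7/22 well crossed at 34.16 cycles, against 22.91 cycles or earlier in the other 8 samples of P6.

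INSR averaged −8.52 ± 4.47 at P6 and −6.98 ± 0.524 at P3 (SD, n = 9 each), a difference of −1.54 (95% interval −4.57 to 1.48, adjusted p = 0.873 in limma). Without the 7/22 well it averaged −7.08 ± 1.24 at P6 (n = 8), and the difference was −0.11. That mean still holds the high 9/21 well, and without donors 9/21 and 7/22 the mean difference was −0.54 (adjusted p = 0.992 in limma), with 6 of 7 donors lower. INSR was lower at P6 in 7 of 9 donors, with a difference of −13.24 in 7/22 and of −1.18 in 14/21, the next deepest, while the difference was 3.13 in 9/21 and 0.43 in 6/21. The P6 sample of 7/22 held 7 wells more than 5 cycles later than their P6 median, INSR among them, and 4 wells that much earlier. Its BMP2 and BMP4 wells never crossed, and the part of these far wells in the INSR value was not tested.

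**Figure D3:**
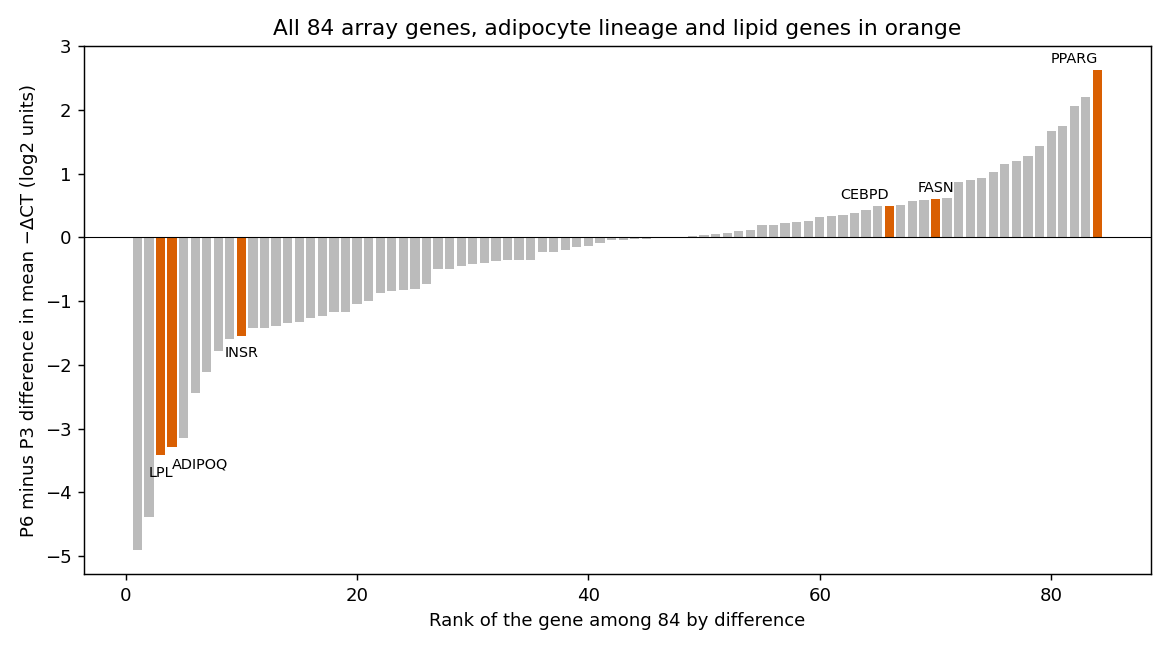
P6 minus P3 difference in mean −ΔCT (vertical axis, log2 units) of the 84 array genes ranked by that difference (horizontal axis), with the 6 adipocyte lineage and lipid genes in orange. Counted from the deepest fall, LPL has rank 3, ADIPOQ 4, INSR 10, CEBPD 66, FASN 70 and PPARG 84.

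The ratio of 2 genes within a sample does not depend on the reference genes, so the pairs among the 6 genes were also compared donor by donor. Of 15 pairs, 1 moved the same way in 9 of 9 donors, against 80 of the 3486 pairs of the array (2.29%), and 5 moved the same way in at least 8 donors, against 390 (11.2%). Pairs that share a gene are not independent, so these counts are descriptions and add no separate evidence of the falls in LPL and ADIPOQ. The pair that moved in 9 of 9 donors was ADIPOQ over PPARG. Its log2 ratio at P6 was lowest at −27.44 in donor 1/22, with a median of −4.67 and a highest value of −2.05 in donor 7/22. At P3 the lowest was −6.15 in donor 14/21, the median −1.48 and the highest 1.80 in donor 9/21. The difference in the ratio was −26.89 in 1/22, where ADIPOQ never crossed and PPARG had its 7.56-cycle well, −0.74 in 14/21, the smallest, and −2.27 at the median. In donor 6/22, where both genes were higher at P6, PPARG was the further raised of the pair.

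LPL over PPARG was lower at P6 in 8 of 9 donors, with a median difference of −5.39 and 7/22 the exception at 3.70. LPL over FASN and LPL over INSR were also lower in 8 of 9 donors, with median differences of −2.44 and −2.41, and FASN over INSR was higher in 8 of 9 with a median of 0.71. The ratio of ADIPOQ to LPL had no common direction, being lower in 4 donors and higher in 5. ADIPOQ and LPL were lower relative to PPARG in nearly every donor, but these ratios share the falls of ADIPOQ and LPL themselves. ADIPOQ over FASN, ADIPOQ over CEBPD and LPL over CEBPD were each lower in 7 of 9 donors, and ADIPOQ over INSR in 6. PPARG over INSR was higher at P6 in 7 of 9 donors, with a median difference of 1.48. The ratios of PPARG to CEBPD and FASN were lower in 4 donors and higher in 5. A shift particular to PPARG is therefore not shown.

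**Figure D4:**
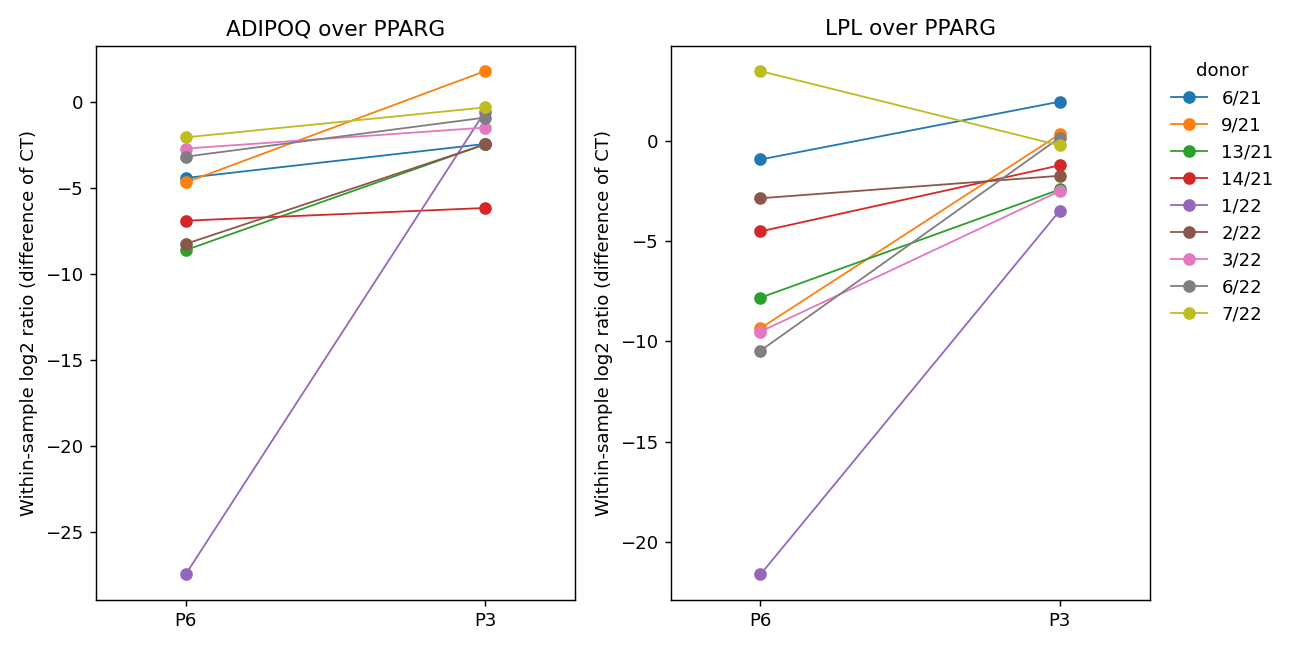
Within-sample log2 ratio of ADIPOQ to PPARG (left) and of LPL to PPARG (right), with CT values capped at 35 cycles, at P6 on the left and P3 on the right of each panel and a line per donor. The ADIPOQ ratio is lower at P6 in 9 of 9 donors and the LPL ratio in 8 of 9, with donor 1/22 far below the rest at P6.

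Between donors no shared order of the 6 genes was detectable after adjustment, with 9 donors. Over 36 relations (15 pairs at P6, 15 pairs at P3 and each gene at P6 against itself at P3), 1 had a Pearson p under 0.05 and none after adjustment by Benjamini and Hochberg (lowest adjusted p = 0.239, exact permutation test). It was LPL with INSR at P6 (n = 9), with an r of −0.73 (exact permutation p = 0.00663), while Spearman's rho was −0.67 (exact p = 0.0589, adjusted p = 0.683). Without 3/22 and 7/22, the donors farthest from the median in LPL, r was −0.78, and without 9/21 and 7/22 it was −0.36. By rank the one relation under 0.05 was CEBPD with INSR at P6, with a rho of 0.80 (exact permutation p = 0.0138, adjusted p = 0.498, n = 9) and an r of 0.46 (exact permutation p = 0.135, adjusted p = 0.944). Without 9/21 and 6/22, the donors farthest from the median in CEBPD, r was 0.58, and without 9/21 and 7/22 it was 0.68.

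No relation between a donor's level at P6 and its level at P3 was detectable with 9 donors. The r between passages was 0.45 for PPARG (exact permutation p = 0.212, n = 9), 0.28 for ADIPOQ, 0.07 for LPL, −0.15 for INSR, −0.27 for CEBPD and −0.42 for FASN, and their adjusted p by the exact permutation test ran between 0.944 and 0.968. With the 2 donors farthest from the P3 median left out, r ran between −0.60 for INSR and 0.41 for ADIPOQ. Spearman's rho was 0.58 for PPARG, 0.25 for ADIPOQ, 0.02 for LPL, −0.03 for INSR, −0.43 for CEBPD and −0.45 for FASN (adjusted exact permutation p between 0.683 and 1). The spread between donors was wider at P6 in 6 of the 6 genes, against 52 of the 84 (61.9%), with an SD at P6 over that at P3 of 8.54 for INSR, 5.42 for PPARG, 2.90 for LPL, 1.76 for ADIPOQ, 1.57 for CEBPD and 1.34 for FASN. Without the single distant wells the P6 SDs were 1.24 for INSR and 2.47 for PPARG, still above those of P3, and 0.794 for CEBPD, below that of P3.

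For each of the 6 genes the array genes with the most similar levels over the 18 samples were listed, among 68 other genes detected in at least 15 samples, as a description of samples that share donors and arrays. ADIPOQ ran closest to the cytokine IL6 and the endothelial gene VWF (r = 0.65 each), which were 0.54 and 0.53 without the P6 sample of 6/22. FASN ran closest to SMURF2, a ubiquitin ligase of the BMP and TGF-β pathways (r = 0.64), and TGFB1 (r = 0.51). PPARG ran closest to NGFR (r = 0.48) and SMAD4 (r = 0.47), which were 0.02 and 0.47 without the 1/22 well of PPARG. CEBPD ran closest to FGF10 and KDR (r = 0.55 and 0.53), of which KDR came to −0.01 without the 9/21 well of CEBPD and FGF10 stayed at 0.55. INSR stood closest to BMP4 (r = 0.92) and BMP2 (r = 0.90), and LPL to ALCAM (r = 0.58) and HAT1 (r = 0.57). Without the P6 samples of 9/21 and 7/22 these were 0.24, 0.11, 0.15 and 0.14. The closest partners of INSR and LPL therefore rest on those samples.

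Other genes of the pathway were taken from lists of known roles. The insulin-like ligands are INS and IGF1. INS had a mean difference of −2.11 but was higher at P6 in 6 of 9 donors, and its P3 well of 14/21 crossed at 13.29 cycles, far before the other samples of P3. IGF1 averaged −16.01 ± 3.82 at P6 and −15.00 ± 1.70 at P3 (SD, n = 9 each). INS and IGF1 had detection in 8 and 6 of 9 samples at P6 and in 7 and 9 at P3, and neither passed the test (adjusted p = 0.873 each in limma). Of the BMPs that favour the fat cell lineage, BMP2 had a mean difference of −1.42, BMP4 −1.18 and BMP7 0.90, and 0 of 3 passed (adjusted p = 0.873 each in limma, 0 at an unadjusted p under 0.05). BMP4 was higher at P6 in 5 of 9 donors and its P6 median was higher by 1.22, while its 7/22 well at P6 never crossed, and BMP2 was lower in 6 of 9. Of 7 genes known to hold fat cell formation back (WNT3A, CTNNB1, RHOA, TGFB1, TNF, IL1B and SOX9), 2 were lower and 5 higher at P6, with a median difference of 0.03, and 0 passed the adjusted or unadjusted threshold. WNT3A, a Wnt ligand, was detected in 0 of 9 samples at P6 and in 1 of 9 at P3. The related genes outside the 6 thus gave no difference past the test in either direction.

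Markers of other cells that stromal cultures can hold were read in the same samples. The leukocyte genes PTPRC and ITGAX, both lower at P6, had differences of −4.38 and −4.91 (adjusted p = 0.0300 and 0.0519 in limma), and the mean level of the pair lay between −20.87 and −16.76 at P6 and between −17.81 and −11.41 at P3. They moved in the direction of LPL and ADIPOQ, and their part in the 2 falls was not tested. By flow cytometry at P3 the paper found no CD45, the protein of PTPRC, on the cells. It proposes with caution that PTPRC RNA at early passages may come from other cells of the digested fat. Of the endothelial genes VWF and KDR, 1 was lower and 1 higher. Of the mural cell genes ACTA2, PDGFRB and MCAM, 2 were lower and 1 higher. Of the 7 MSC surface markers, 2 were lower and 5 higher. None of these endothelial, mural and MSC surface genes passed the adjusted threshold in limma, and 0 had an unadjusted p under 0.05.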

How the data were processed

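Expression in 18 samples (9 donors, P6 and P3) was measured with an RT-qPCR array of 84 genes, 5 reference genes and 7 control wells, 96 in all. The deposited values are CT scores in cycles, with no limit applied. A second table deposited by the authors holds mean ΔCT scores per passage from their array software, and the means computed here came within 0.00489 cycles of them. Their fold-change table holds their own comparison and was not used. There is no read depth, so precision depends on 9 donors and the 35-cycle limit.

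CT values were capped at 35, reduced by the geometric mean CT of ACTB, B2M, HPRT1, PGK1 and RPL13A, and turned in sign. P6 was compared with P3 in R 4.3.3 with limma 3.58.1 (two-sided, no donor block, since the study's test is unpaired), adjusted over 84 genes with a threshold of 0.05. The script was tested on simulated data. Exact permutation tests and Fisher's test used Python 3.11.15 and scipy 1.17.1, with all 362880 pairings for correlations, and figures used matplotlib 3.10.9. The array accessions of 2 of the 6 genes, and all 6 symbols, matched the RefSeq dog annotation.

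Text names the 6 genes, any gene called in limma, the 2 array genes closest to each of the 6, and list genes where they help. EGF, CSF3, HDAC1, BGLAP and wells beside others were named after their values were seen. The 6 genes and the lists were chosen with earlier results of these data known. Both passages come from the same dogs, so the samples are paired: deviations of same-donor samples correlated between 0.066 and 0.643 (median 0.161, 6 of 9 above 0.1), against a median of −0.034 between different donors. Alternatives were the donor as a block, exact permutation and sign-change tests, robust regression, medians, CT limits of 40 and 32 cycles, other normalizations, a low-level filter (mean CT no later than 30 at either passage, 74 genes kept), the methods' unpaired test on the linear scale (2 to the power −ΔCT), each donor left out, and donors numbered /21 or /22 alone. Leaving out 9/21 and 7/22, and single distant wells, was chosen after seeing the data.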

Additional observations from a re-analysis of the deposited data

Results flagged for a closer look

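In 3 of 12 groups of a gene and a passage, a single sample lay far from the other 8 by Dixon's ratio of its gap to the range. In normally distributed values chance sets apart about 1 in 20 groups by this rule. Over all 84 genes the rule set apart a sample in 40 of 168 groups (23.8%). The share among the 6 genes is close to that, so distant wells are not particular to them. The 3 were all at P6. PPARG in donor 1/22 had a level of 7.56, against −5.16 or lower in the other 8 donors at P6. CEBPD in donor 9/21 had a level of −1.93, against −6.34 or lower. INSR in donor 7/22 had a level of −20.03, against −8.17 or higher. Each is 1 well without a repeat, and whether it reflects the culture or the well was not tested. No other well of the 6 genes met the rule, although LPL in 3/22 and 9/21 and ADIPOQ in 1/22 and 2/22 were at the limit of 35 cycles.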

How the results depend on the processing

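Of the 84 genes, 1 (PTPRC) had an adjusted p under 0.05 in limma. The count was 2 when normalized to the median CT of always detected genes, 2 with the replicate block (donor), 3 with robust regression and 2 with the filter on mean CT. It was 0 without ACTB and B2M, by the exact permutation test, by the exact sign-change test, by the methods' test, in donors /21 alone, in donors /22 alone and without 9/21 and 7/22, where 5, 5, 7, 4, 3, 5 and 4 genes had an unadjusted p under 0.05. It lay between 0 and 2 as each donor was left out, at 0 without 6/21, 13/21, 3/22, 6/22 or 7/22 and at 2 without 14/21 or 1/22. The 0 of the exact sign-change test was close to fixed by the design. With 9 pairs its lowest possible p is 0.00391, which PTPRC reached with an adjusted p of 0.328.

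LPL passed the threshold under robust regression alone (−3.10, adjusted p = 0.0154), and over all its alternatives the adjusted p ran between 0.0154 and 0.899. Its difference lay between −4.17 and −2.76 with each donor left out. ADIPOQ lay between −4.03 and −2.52, −4.40 with a limit of 40 cycles and −2.62 with 32, but was 0.13 by the methods' test, a log2 ratio of mean linear values, in which the highest ADIPOQ level is that of 6/22 at P6. INSR was 0.30 by that test and 0.58 in donors /21 alone, and lay between −2.13 and −0.08 with each donor left out, at −0.08 without 7/22. CEBPD was −0.21 in donors /22 alone, −0.15 without 9/21 and 7/22 and −0.10 without its distant well, and lay between −0.25, without 9/21, and 0.81. PPARG lay between 0.77, without 1/22, and 3.16, and FASN between 0.39 and 0.77. With the replicate block, which uses the pairs, the adjusted p was 0.232 for ADIPOQ and LPL, 0.741 for PPARG, FASN and INSR and 0.838 for CEBPD, so no call among the 6 genes changed. The causes were not tested.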

Other observations

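The only donor with a higher ADIPOQ level at P6 (6/22, a difference of 2.61) and the only donor with a higher LPL level at P6 (7/22, a difference of 2.66) were the oldest dogs of the set. This was noticed after the values were seen, age was not tested, and both P6 samples hold several wells more than 5 cycles from the median of their passage (7 in 6/22 and 11 in 7/22).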
